A study of Drosophila melanogaster with 18 samples.

Results

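The 9 genes described here, srp, lz, ush, eater, NimC1, Hml, Pxn, crq and Sr-CI, are genes of hemocyte fate and of scavenging by hemocytes, and they were selected by symbol from the 16727 genes counted in each RNA-seq library. They were chosen by their readout, since the levels of several of them in each knockdown against WT were known when the list was drawn up. Their values against WT are therefore given as a description. Hemocytes are the blood cells of Drosophila. Plasmatocytes engulf microbes and dying cells through scavenger receptors and Nimrod receptors with EGF-like repeats, crystal cells carry prophenoloxidases for melanization, and lamellocytes encapsulate parasites. The GATA factor Serpent (srp) acts at the top of the blood lineage, its partner U-shaped (ush) restrains crystal cell fate, and the Runx factor Lozenge (lz) drives that fate.

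Expression was measured by poly(A) RNA-seq in BG3 cells, a cell line from the larval central nervous system and not a hemocyte line. BEAF-32 RNAi was a single knockdown, Cp190 RNAi Chro RNAi targeted both of these genes at once, BEAF-32 RNAi Dref RNAi targeted another pair, and WT cells were the control, with 3 libraries in each group. The knockdown cells were taken 72 hours after transfection with dsRNA and no dsRNA is stated for WT cells. BEAF-32, Cp190, Chro and Dref are proteins that bind at insulators, TAD borders and active promoters. Nothing in the labels says whether the libraries of a group came from separate cultures, so each p-value rests on library-to-library spread that may be technical. TAD and loop lists were used for the 3 knockdowns, each called on 2 merged Hi-C replicates.

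Totals over genes were 7178403 to 10001747 reads in BEAF-32 RNAi, 9962250 to 12082059 in Cp190 RNAi Chro RNAi, 8120767 to 9834988 in BEAF-32 RNAi Dref RNAi and 10489456 to 12202598 in WT libraries. Levels are given as CPM, reads of a gene scaled to a common library total over genes with TMM factors. BEAF-32 RNAi replicate 3 stood apart from the other libraries of its group. It differed from the mean of replicates 1 and 2 by more than 1 on the log2(CPM + 1) scale at 1682 of 10545 genes, against 2 to 19 genes for any library of the other 3 groups, and 29.5% of its reads had no unique alignment, against 21.0 and 21.9% in replicates 1 and 2. That share was 21.9 to 22.5% for Cp190 RNAi Chro RNAi, 24.6 to 25.8% for BEAF-32 RNAi Dref RNAi and 16.0 to 17.0% in WT. BEAF-32 itself was at 41.0 to 74.8 CPM in BEAF-32 RNAi, 69.1 to 80.8 CPM in Cp190 RNAi Chro RNAi, 51.0 to 59.4 CPM for BEAF-32 RNAi Dref RNAi and 88.6 to 92.7 CPM in WT. The highest of the BEAF-32 RNAi values, 74.8 CPM, was that of replicate 3 and lay within the range of the libraries in which BEAF-32 was not targeted. Cp190, Chro and Dref were also lower than in WT in every knockdown library, the untargeted ones included. Cp190 had 287.4 to 314.7 CPM where targeted, 231.6 to 328.8 CPM in the other knockdowns and 422.9 to 436.3 CPM in WT. Chro had 186.5 to 204.9, 100.5 to 223.1 and 318.2 to 338.4 CPM in the same order. Dref had 127.8 to 133.7, 85.3 to 155.7 and 203.4 to 211.4 CPM. The paper itself reports a strong and specific loss of its targets in mRNA and protein. Because replicate 3 stood apart, most results of BEAF-32 RNAi that rest on it are given with and without it. The counts and medians of single lists of other hemocyte genes are given only with it.

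The cells were checked against marker genes of several cell types. Repo and moody, which mark glia, had 30.1 to 88.4 CPM and 124 to 316 CPM over the 12 libraries, and repo was higher in the double knockdowns (74.4 to 81.8 CPM) than in WT (58.9 to 62.8 CPM). The neuronal gene elav had 73.6 to 114 CPM, whereas the synaptic genes nSyb and brp stayed under 1 CPM in every library. Of the hemocyte markers, Hemese (He) had no read in any library, and the 9 fat body genes together reached 1.45 to 5.32 CPM. The cells thus held RNA of some hemocyte genes and none of others, and fewer cells of a type cannot be told apart from less RNA per cell in these bulk libraries.

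The 9 genes spanned a wide range of levels. Per kilobase of exon, the WT mean was 137.8 CPM for srp, 118.5 for crq, 63.5 for ush, 4.74 for Pxn, 0.506 for eater, 0.334 for Sr-CI, 0.0543 for Hml and 0.0186 for NimC1, and lz had no WT read. In this order the neighbours eater and Sr-CI overlapped in their WT libraries, as did Hml and NimC1. The 3 genes of highest level, srp, crq and ush, made up nearly all of the summed level of the 9 genes, which was 1365 to 1402 CPM in BEAF-32 RNAi, 1305 to 1412 CPM in Cp190 RNAi Chro RNAi, 1254 to 1268 CPM for BEAF-32 RNAi Dref RNAi and 1587 to 1608 CPM in WT. The knockdown sums lay below all WT sums. Sums of marker lists for other cell types moved in both directions between the same libraries. The 9 neuroblast markers summed to 552.6 to 737.0 CPM in BEAF-32 RNAi, 688.1 to 730.1 CPM for Cp190 RNAi Chro RNAi, 661.3 to 687.1 CPM for BEAF-32 RNAi Dref RNAi and 1159 to 1286 CPM in WT, although dpn, which defines these cells, was at most 1.36 CPM in any library. The 10 glial markers summed to 860.2 to 1032 CPM in BEAF-32 RNAi, 1057 to 1072 CPM for Cp190 RNAi Chro RNAi, 967.6 to 1011 CPM for BEAF-32 RNAi Dref RNAi and 1205 to 1249 CPM in WT. The 10 neuronal markers summed to 78.2 to 118.4 CPM in BEAF-32 RNAi, 98.6 to 117.7 CPM for Cp190 RNAi Chro RNAi, 106.2 to 112.3 CPM for BEAF-32 RNAi Dref RNAi and 76.9 to 82.6 CPM in WT. The neuroblast and glial sums were thus below WT in every knockdown library, as the sum of the 9 genes was, and their part in it was not tested.

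**Figure D1:**
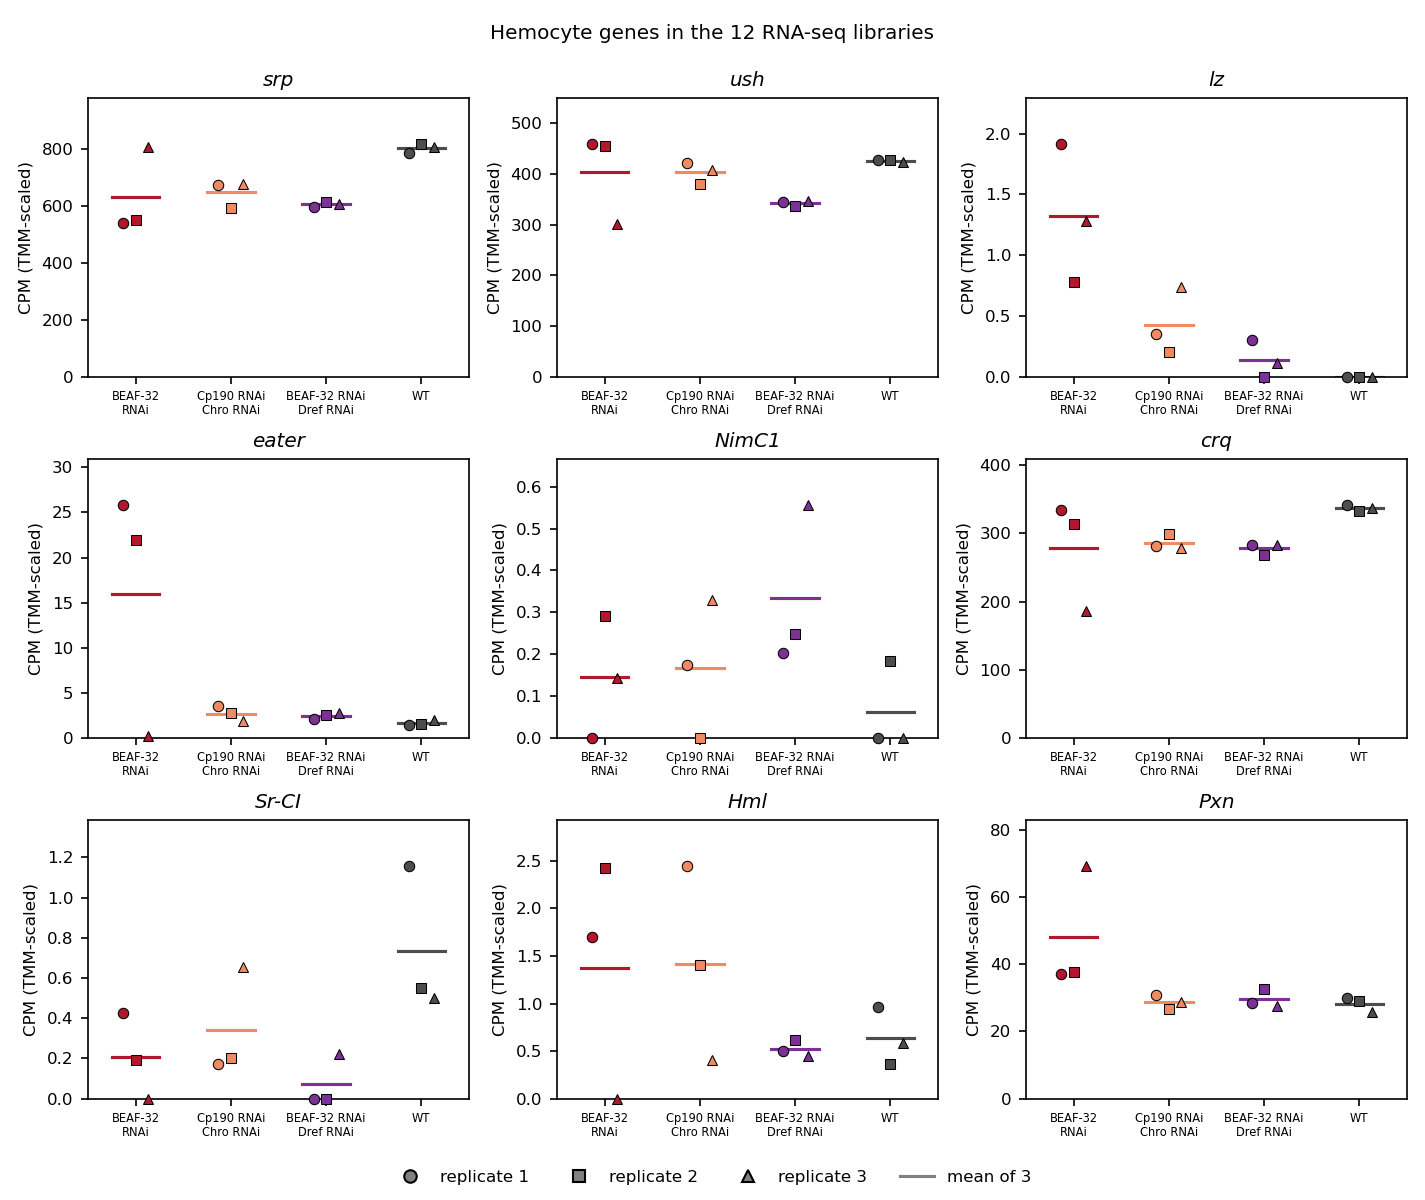
Levels of the 9 genes in each of the 12 libraries, in CPM on a linear axis from 0, with 1 panel per gene. Circles, squares and triangles are replicates 1, 2 and 3 and horizontal lines are group means, with the 3 knockdowns to the left of WT. BEAF-32 RNAi replicate 3 is at 0.142 CPM for eater, where replicates 1 and 2 are at 25.8 and 22.0 CPM.

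The promoters of eater, Hml, srp and lz are shown because eater and lz were highest relative to WT in BEAF-32 RNAi, Hml varied among the replicates with eater, and srp encodes a GATA factor. These are the 250 bases before the annotated 5' end of each gene, read 5' to 3' on the strand of the gene from RefSeq, Release 6 (the assembly also called dm6). Capitals mark matches to GATA motifs (GATA with T or A before it and A or G after it) and to the BEAF-32 motif CGATA, each searched on both strands.
eater, 3R:27099680-27099929, minus strand: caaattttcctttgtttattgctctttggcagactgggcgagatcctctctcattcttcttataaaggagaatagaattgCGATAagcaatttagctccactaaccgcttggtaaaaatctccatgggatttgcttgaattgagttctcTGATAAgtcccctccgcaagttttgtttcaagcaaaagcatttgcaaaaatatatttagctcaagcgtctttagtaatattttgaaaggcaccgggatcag
Hml, 3L:13845804-13846053, plus strand: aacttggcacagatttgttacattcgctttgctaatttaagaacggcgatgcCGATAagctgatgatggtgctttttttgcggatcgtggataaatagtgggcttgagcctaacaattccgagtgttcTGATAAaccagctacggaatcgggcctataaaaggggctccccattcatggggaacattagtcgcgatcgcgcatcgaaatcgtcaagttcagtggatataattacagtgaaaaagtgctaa
srp, 3R:15985902-15986151, plus strand: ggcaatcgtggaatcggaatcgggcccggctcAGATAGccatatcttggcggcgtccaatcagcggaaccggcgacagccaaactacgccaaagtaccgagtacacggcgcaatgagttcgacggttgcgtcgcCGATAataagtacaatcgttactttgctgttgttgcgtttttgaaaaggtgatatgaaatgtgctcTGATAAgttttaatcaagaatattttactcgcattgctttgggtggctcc
lz, X:9284399-9284648, plus strand: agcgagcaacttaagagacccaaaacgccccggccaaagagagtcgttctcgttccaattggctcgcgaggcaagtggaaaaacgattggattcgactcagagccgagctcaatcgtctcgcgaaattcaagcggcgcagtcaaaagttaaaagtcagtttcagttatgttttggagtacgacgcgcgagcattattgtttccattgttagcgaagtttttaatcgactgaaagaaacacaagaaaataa
In eater the CGATA match began at position -170 from the start and the TGATAA match at -101. Hml held the same pair of words in the same order, at -198 and -122. In srp the CGATA match at -116 lay between AGATAG at -218 and TGATAA at -50. The lz window held no match to either motif.

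Over the window from 250 bases before to 50 bases after the start, 7 of the 9 genes had a GATA match, all but lz and ush, against 46.9% of 13742 promoters. CGATA was found in 4, srp, eater, Hml and Pxn, against 47.3% of promoters. A Runx match (TGTGGT, or the same word with C in place of the inner T) was found in ush alone, against 20.7%, and the DRE (TATC followed directly by GATA, which overlaps the BEAF-32 motif) in none of the 9, against 9.21%. A match is a word in the sequence and not a measured binding site.

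Serpent is encoded on 3R at 15986152 to 16004085. The gene srp had 541.8, 549.7 and 807.1 CPM in BEAF-32 RNAi, 672.1, 593.9 and 678.7 CPM in Cp190 RNAi Chro RNAi, 598.2, 613.2 and 606.1 CPM in BEAF-32 RNAi Dref RNAi and 785.9, 816.3 and 808.5 CPM in WT. All knockdown libraries but BEAF-32 RNAi replicate 3 lay below the lowest WT library, and that replicate lay within the WT range. The log2 fold change against WT was -0.34 ± 0.131 (SE) in BEAF-32 RNAi, -0.31 ± 0.131 for Cp190 RNAi Chro RNAi and -0.41 ± 0.131 for BEAF-32 RNAi Dref RNAi. Without replicate 3 it was -0.56 ± 0.0515 in BEAF-32 RNAi. The noncoding gene CR44133 overlaps srp on the same strand, and its mean was under 1 CPM in every group.

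U-shaped, a zinc finger cofactor of GATA factors, is encoded on 2L at 476220 to 540560. The gene ush had 458.1, 455.8 and 300.3 CPM in BEAF-32 RNAi, 420.6, 380.4 and 408.3 CPM in Cp190 RNAi Chro RNAi, 344.9, 336.7 and 347.1 CPM in BEAF-32 RNAi Dref RNAi and 426.7, 426.9 and 422.9 CPM in WT. BEAF-32 RNAi replicates 1 and 2 lay above all WT libraries and replicate 3 below every other library of the 12, so that the group lay on both sides of WT. All libraries of the other knockdowns were below WT, by a log2 fold change of -0.08 ± 0.130 in Cp190 RNAi Chro RNAi and -0.31 ± 0.131 for BEAF-32 RNAi Dref RNAi. In BEAF-32 RNAi the log2 fold change was -0.07 ± 0.130, and it was 0.10 ± 0.05002 without replicate 3.

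Lozenge is encoded on X at 9284649 to 9303636. It had 18, 8 and 9 reads in BEAF-32 RNAi, 4, 2 and 9 reads in Cp190 RNAi Chro RNAi, 3, 0 and 1 reads in BEAF-32 RNAi Dref RNAi and 0, 0 and 0 reads in WT. Reads of lz were thus found in 8 of the 9 knockdown libraries and in none of the WT libraries. Against a floor of 3 reads over the WT libraries, 0.0902 CPM, the pooled level was at least 14.5-fold higher for BEAF-32 RNAi, at least 4.95-fold higher for Cp190 RNAi Chro RNAi and at least 1.65-fold higher for BEAF-32 RNAi Dref RNAi than in WT. These bounds cover counting error only. Replicate 3 was not apart from its group here, with 1.28 CPM against 1.91 and 0.775 CPM in replicates 1 and 2, and without it the bound was at least 14.6-fold.

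Eater is a Nimrod receptor through which plasmatocytes bind bacteria, encoded by a gene of 3813 bp on 3R at 27095867 to 27099679. It had 25.8, 22.0 and 0.142 CPM in BEAF-32 RNAi, 3.49, 2.71 and 1.80 CPM in Cp190 RNAi Chro RNAi, 2.02, 2.48 and 2.78 CPM in BEAF-32 RNAi Dref RNAi and 1.44, 1.56 and 2.00 CPM in WT. The 3 libraries of BEAF-32 RNAi held the highest and the lowest levels of all 12, from 243 and 227 reads in replicates 1 and 2, and 1 read in replicate 3. The group mean was 16.0 ± 13.8 CPM in BEAF-32 RNAi, 2.67 ± 0.842 CPM in Cp190 RNAi Chro RNAi, 2.42 ± 0.380 CPM in BEAF-32 RNAi Dref RNAi and 1.67 ± 0.296 CPM in WT (SD, n = 3 each). The log2 fold change against WT was 3.26 ± 0.897 in BEAF-32 RNAi, 0.66 ± 0.936 for Cp190 RNAi Chro RNAi and 0.53 ± 0.963 for BEAF-32 RNAi Dref RNAi. Replicates 1 and 2 alone averaged 23.9 ± 2.68 CPM (SD, n = 2), a log2 fold change of 3.82 ± 0.231.

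NimC1, a Nimrod receptor of plasmatocytes encoded on 2L at 13973158 to 13976769, was hardly detected. It had 0, 3 and 1 reads in BEAF-32 RNAi, 2, 0 and 4 reads in Cp190 RNAi Chro RNAi, 2, 2 and 5 reads in BEAF-32 RNAi Dref RNAi and 0, 2 and 0 reads in WT. The ratio of pooled levels to WT was 2.49 (95% exact counting interval 0.356 to 27.5) in BEAF-32 RNAi, 2.97 (0.531 to 30.1) for Cp190 RNAi Chro RNAi and 5.55 (1.15 to 52.8) for BEAF-32 RNAi Dref RNAi. Each library held at most 5 reads of NimC1, so that differences between groups were hardly detectable at this depth.

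Croquemort (crq), a CD36-like receptor for apoptotic cells encoded on 2L at 448254 to 453024, was among the highest of the 9 per kilobase. It had 334.6, 314.4 and 186.7 CPM in BEAF-32 RNAi, 281.8, 299.1 and 278.0 CPM in Cp190 RNAi Chro RNAi, 282.7, 268.4 and 282.8 CPM in BEAF-32 RNAi Dref RNAi and 341.2, 333.3 and 338.1 CPM in WT. All 6 libraries of the double knockdowns lay below WT, and in BEAF-32 RNAi replicate 1 lay within the WT range, replicate 2 just below it and replicate 3 far below. The log2 fold change was -0.28 ± 0.162 in BEAF-32 RNAi, -0.24 ± 0.162 for Cp190 RNAi Chro RNAi and -0.28 ± 0.162 for BEAF-32 RNAi Dref RNAi. Without replicate 3 the value in BEAF-32 RNAi was -0.06 ± 0.0515.

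Sr-CI, a scavenger receptor of class C that binds bacteria, is encoded on 2L at 4121702 to 4124153. It had 4, 2 and 0 reads in BEAF-32 RNAi, 2, 2 and 8 reads in Cp190 RNAi Chro RNAi, 0, 0 and 2 reads in BEAF-32 RNAi Dref RNAi and 12, 6 and 6 reads in WT. The ratio of pooled levels to WT was 0.311 (0.104 to 0.780) in BEAF-32 RNAi, 0.495 (0.225 to 1.03) for Cp190 RNAi Chro RNAi and 0.103 (0.0118 to 0.414) for BEAF-32 RNAi Dref RNAi. Sr-CI thus had fewer reads in each knockdown than in WT, and without replicate 3 the ratio in BEAF-32 RNAi was 0.421 (0.141 to 1.06). These intervals cover counting error only, and the fitted log2 fold change in BEAF-32 RNAi was -1.68 ± 0.914 (edgeR adjusted p = 0.1725).

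Hemolectin (Hml), a clotting protein with von Willebrand factor domains, is encoded on 3L at 13846054 to 13860001. It had 16, 25 and 0 reads in BEAF-32 RNAi, 28, 14 and 5 reads in Cp190 RNAi Chro RNAi, 5, 5 and 4 reads in BEAF-32 RNAi Dref RNAi and 10, 4 and 7 reads in WT. As with eater, BEAF-32 RNAi replicates 1 and 2 were above the WT libraries and replicate 3 below them, here with no read at all. The ratio of pooled levels to WT was 2.43 (1.40 to 4.32) in BEAF-32 RNAi, 2.21 (1.30 to 3.90) for Cp190 RNAi Chro RNAi and 0.822 (0.387 to 1.70) for BEAF-32 RNAi Dref RNAi. It was 3.29 (1.90 to 5.86) in BEAF-32 RNAi without replicate 3. These intervals cover counting error and not the spread between libraries. The fitted log2 fold change was 1.15 ± 0.871 (edgeR adjusted p = 0.327) in BEAF-32 RNAi and 1.14 ± 0.863 (adjusted p = 0.329) for Cp190 RNAi Chro RNAi. The libraries of Cp190 RNAi Chro RNAi had 2.44, 1.40 and 0.410 CPM, against 0.962, 0.367 and 0.585 CPM in WT, so that replicates 1 and 2 lay above the WT range and replicate 3 within it.

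Peroxidasin (Pxn), a peroxidase of the extracellular matrix made by hemocytes, is encoded on 3L at 2601455 to 2630064. It had 37.2, 37.8 and 69.1 CPM in BEAF-32 RNAi, 30.9, 26.8 and 28.8 CPM in Cp190 RNAi Chro RNAi, 28.5, 32.7 and 27.5 CPM in BEAF-32 RNAi Dref RNAi and 29.9, 29.1 and 25.7 CPM in WT. All 3 BEAF-32 RNAi libraries lay above every other library, and replicate 3, the lowest for eater and Hml, was the highest for Pxn. The log2 fold change was 0.76 ± 0.204 in BEAF-32 RNAi and 0.41 ± 0.110 without replicate 3, against 0.03 ± 0.204 in Cp190 RNAi Chro RNAi and 0.07 ± 0.206 for BEAF-32 RNAi Dref RNAi.

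All 9 genes had the 10 reads over the 12 libraries that the fit required, although lz, NimC1, Sr-CI and Hml had few reads in any library. With an adjusted p under 0.05 in edgeR's quasi-likelihood test as the call, 3 of the 9 (eater, lz and Pxn) were called higher and none lower in BEAF-32 RNAi than in WT, where 18.5% of all genes tested were called higher and 15.7% were called lower there. In Cp190 RNAi Chro RNAi lz alone was called higher and none lower, with 17.9% and 15.6% of all genes. In BEAF-32 RNAi Dref RNAi none was called higher and srp and Sr-CI were called lower, with 21.5% and 20.3% of all genes. Since these contrasts chose the genes, nothing is read from the shares. Without replicate 3, BEAF-32 RNAi had 4 called higher (eater, lz, Pxn and Hml) and srp called lower, with 23.2% and 22.9% of all genes. All groups share 1 estimate of spread, so this library also entered the SE of the double knockdowns. For eater in Cp190 RNAi Chro RNAi the SE was 0.936 with it and 0.290 without. Cp190 RNAi Chro RNAi then had 2 higher (lz, eater) and 2 lower (srp, crq), beside 3034 and 2947 of 10395 genes. BEAF-32 RNAi Dref RNAi had 0 higher and 4 lower (srp, crq, ush, Sr-CI), beside 3199 and 3149. The median log2 fold change of the 9 genes was 0.76 in BEAF-32 RNAi, 0.03 for Cp190 RNAi Chro RNAi and -0.28 for BEAF-32 RNAi Dref RNAi, beside 0.07, 0.02 and 0.03 over all genes tested. The eater call in BEAF-32 RNAi was lost when any of the 3 WT libraries was left out, and that of Pxn when WT replicate 3 was left out. The calls of srp and Sr-CI in BEAF-32 RNAi Dref RNAi were lost without any 1 of the WT libraries and without replicate 1 or replicate 2 of that knockdown, and that of srp also without its replicate 3. The 3 comparisons share the same WT libraries.

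**Figure D2:**
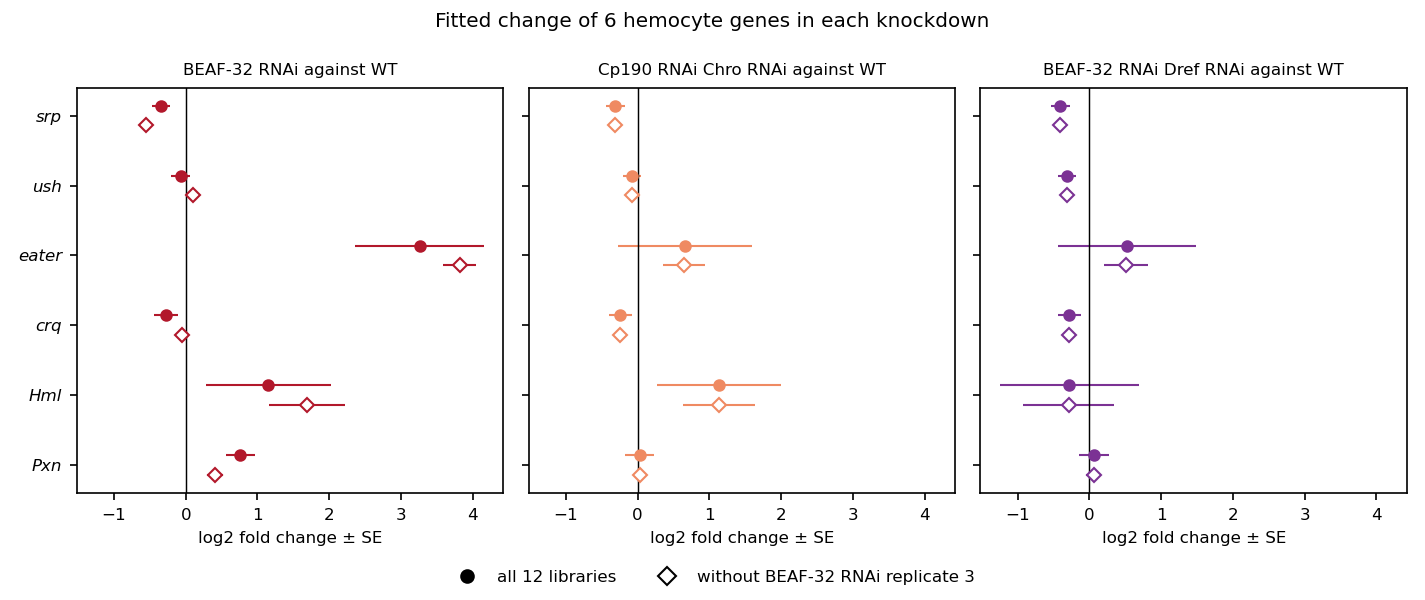
Fitted log2 fold change against WT of 6 genes in each knockdown, with bars of 1 SE and with lz, NimC1 and Sr-CI left out. Hml is drawn although it had few reads, and none in BEAF-32 RNAi replicate 3. Filled circles are the fit on all 12 libraries and open diamonds the fit without BEAF-32 RNAi replicate 3. The value of eater in BEAF-32 RNAi is 3.26 with all libraries and 3.82 without that replicate, with a shorter bar.

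The 3 BEAF-32 RNAi libraries were then compared singly. On the log2(CPM + 1) scale, replicate 3 differed from the mean of replicates 1 and 2 by -4.44 at eater, and 0.019% of the genes tested differed as far in either direction. The difference was -1.60 at Hml, as far as in 5.27% of genes, 0.86 at Pxn (20.3%), -0.79 at crq (23.1%), -0.60 at ush (33.7%) and 0.56 at srp (36.5%). It was -0.38 at Sr-CI, 0.00 at lz and 0.01 at NimC1. The genes were chosen with the single BEAF-32 RNAi libraries in view, so these shares are a description and support nothing. The lower depth of replicate 3, 7178403 reads, and its higher share of reads without a unique alignment moved with these values, and their part was not tested.

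**Figure D3:**
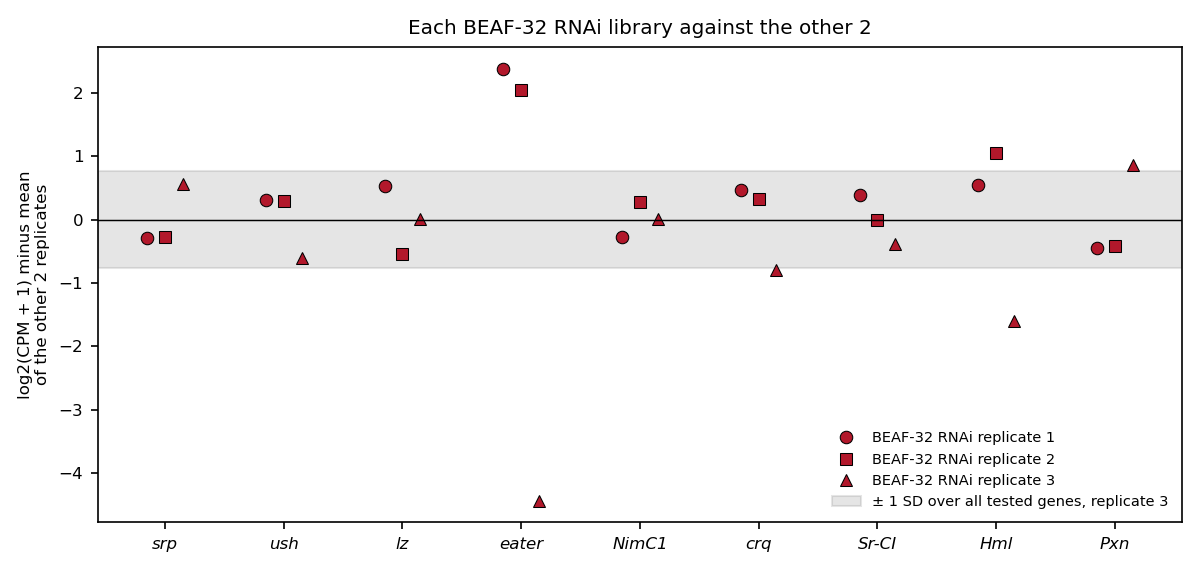
Difference of each BEAF-32 RNAi library from the mean of the other 2 replicates, on the log2(CPM + 1) scale, for the 9 genes along the horizontal axis. Circles, squares and triangles are replicates 1, 2 and 3, and the grey band is 1 SD (0.767) on either side of 0 over all genes tested for replicate 3, which is at -4.44 for eater at -1.60 for Hml, at 0.86 for Pxn and at -0.79 for crq, all outside the band.

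Whether the genes differed between the knockdowns was tested with WT left out of the contrast. These contrasts share their knockdown libraries with the comparisons that chose the genes, so that the tests are not independent of the choice. None of the 9 genes passed in edgeR in BEAF-32 RNAi Dref RNAi against BEAF-32 RNAi, where 5.74% of all genes did, or in Cp190 RNAi Chro RNAi against BEAF-32 RNAi, where 6.9% did. Eater was lower by a log2 value of -2.73 ± 0.877 in BEAF-32 RNAi Dref RNAi than in BEAF-32 RNAi (adjusted p = 0.0908) and by a log2 value of -2.60 ± 0.854 in Cp190 RNAi Chro RNAi than in BEAF-32 RNAi (adjusted p = 0.0951). Pxn had -0.69 ± 0.205 (adjusted p = 0.0701) and -0.73 ± 0.204 (adjusted p = 0.0540) in the same order. In BEAF-32 RNAi Dref RNAi against BEAF-32 RNAi the fitted difference of lz was -3.07 ± 0.835 (adjusted p = 0.0628). In BEAF-32 RNAi Dref RNAi against Cp190 RNAi Chro RNAi no gene at all passed in edgeR (0.0% of 10545 tested, with 405 at an unadjusted p under 0.05, and 3 higher and 3 lower calls by DESeq2), none of the 9 included.

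Leaving out BEAF-32 RNAi replicate 3, the library in which eater and Hml were lowest, changed these calls. The values without it come from the libraries whose high levels of eater and lz chose the genes, and they are given as a description with no p-value. In BEAF-32 RNAi Dref RNAi against BEAF-32 RNAi, 7 of the 9 genes then passed, where 42.9% of all genes did. The log2 difference was -3.31 ± 0.227 (SE) for eater, -3.08 ± 0.848 for lz and -1.98 ± 0.573 for Hml. It was smaller for ush (-0.42), Pxn (-0.35), crq (-0.23) and srp (0.14). In Cp190 RNAi Chro RNAi against BEAF-32 RNAi, 5 of the 9 passed, where 37.9% of all genes did. There the log2 difference was -3.17 ± 0.214 for eater, -0.38 for Pxn, -0.18 for crq, -0.18 for ush and 0.24 for srp. In BEAF-32 RNAi Dref RNAi against Cp190 RNAi Chro RNAi ush alone passed, at -0.24, where 12.8% of all genes did. Nothing is read from these counts.

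The 6 genes with at least 100 reads in total were each set beside the genes whose log2(CPM + 1) followed them most closely over the 12 libraries, out of 8501 compared. For eater these were CG45186 (Pearson r = 0.99), CG4848 (0.99) and CG13506 (0.98). The points share their libraries, and the 2 high BEAF-32 RNAi libraries weigh on each r. CG13506 had 193.8, 197.3 and 34.3 CPM in BEAF-32 RNAi, 76.7, 72.6 and 75.5 CPM in Cp190 RNAi Chro RNAi, 68.9, 73.9 and 69.4 CPM in BEAF-32 RNAi Dref RNAi and 55.6, 54.6 and 50.8 CPM in WT. CG4848 had 121.1, 126.0 and 57.3 CPM in BEAF-32 RNAi, against 75.0, 71.1 and 71.5 CPM in WT. These genes were picked for their r, so that their likeness to eater restates how they were chosen. The closest genes were pyd (0.96) for srp, Nat1 (0.99) for ush, Fancd2 and borr (0.98 each) for crq, Ptpmeg (0.88) for Hml and CR43334 (0.96) for Pxn. The r of CR43334 was 0.75 without replicate 3.

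**Figure D4:**
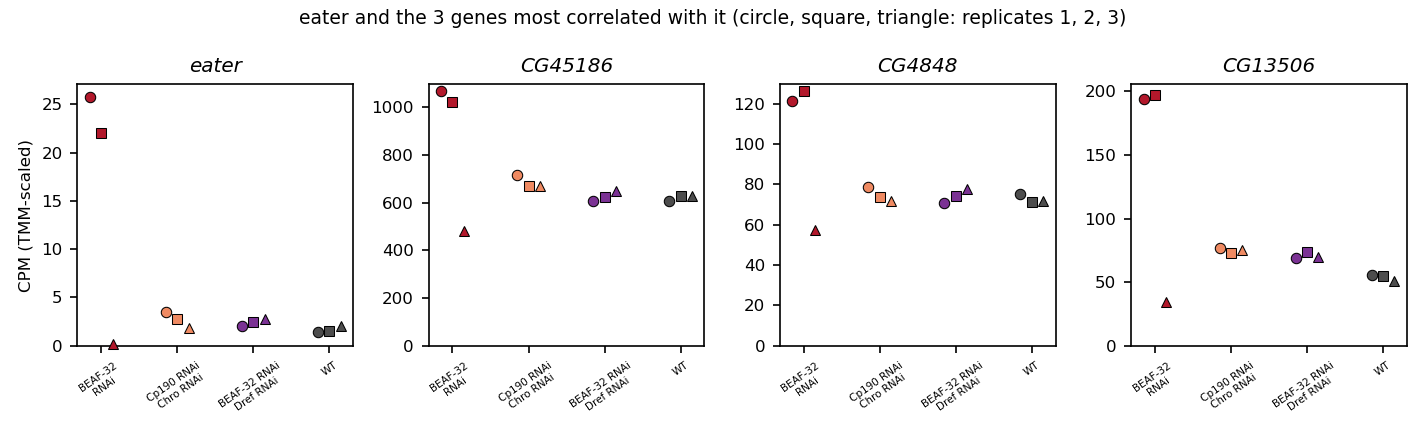
Levels of eater and of the 3 genes most like it over the 12 libraries, in CPM on linear axes from 0, with 1 panel per gene and the knockdowns left of WT. Circles, squares and triangles are replicates 1, 2 and 3. All 4 are high in BEAF-32 RNAi replicates 1 and 2 and low in replicate 3.

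A further 70 hemocyte genes in 5 lists were examined, of which 55 had enough reads to be tested. In edgeR 14 rose with 18 that fell in BEAF-32 RNAi against WT, whereas Cp190 RNAi Chro RNAi had 17 higher with 8 lower, and BEAF-32 RNAi Dref RNAi had 16 higher with 15 lower. Over all genes 18.5, 17.9 and 21.5% were called higher and 15.7, 15.6 and 20.3% lower in these knockdowns. The same shares stand beside the counts of each list below. Without replicate 3, BEAF-32 RNAi had 24 higher with 24 lower, beside 23.2% and 22.9% of all genes. Of 16 tested genes of fate and signalling, 2, 2 and 3 rose and 8, 5 and 8 fell in the 3 knockdowns in that order, with a median log2 fold change of -0.36, -0.33 and -0.43. Alk, a receptor tyrosine kinase, fell in all 3, with 6.79, 8.53 and 0.284 CPM in BEAF-32 RNAi, 7.50, 4.61 and 4.02 CPM in Cp190 RNAi Chro RNAi, 3.94, 2.48 and 3.00 CPM in BEAF-32 RNAi Dref RNAi and 101.4, 96.6 and 100.3 CPM in WT. Every knockdown library thus held less than any WT library, at a log2 fold change of -4.18, -4.21 and -4.97 (edgeR adjusted p = 0.000118, 0.000103 and 4.44e-05).

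The ligands of Pvr, the receptor that hemocytes need to survive and migrate, moved in different directions. Pvf2 had 146.0, 149.9 and 360.3 CPM in BEAF-32 RNAi, 158.3, 172.9 and 169.6 CPM in Cp190 RNAi Chro RNAi, 215.7, 209.4 and 218.4 CPM in BEAF-32 RNAi Dref RNAi and 40.3, 35.6 and 40.5 CPM in WT. Pvf3 rose by 3.08, 2.51 and 2.62 on the log2 scale, whereas Pvf1 fell by 0.84, 0.95 and 1.12. Stat92E, the transcription factor of the JAK/STAT pathway, fell by 0.59, 0.53 and 0.73, and Bgb, a partner of Runx proteins, fell by 0.72, 0.55 and 0.72 (edgeR adjusted p up to 0.00504 for Bgb). Gcm, which promotes glial and plasmatocyte fate, had 3, 2 and 7 reads in the 3 knockdowns and 0 in WT. The 7 reads of BEAF-32 RNAi Dref RNAi were a level 2.88 times the WT floor of 3 reads. Gcm passed in that knockdown only (edgeR adjusted p = 0.0148).

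Among the phagocytosis receptors and opsonins 6, 7 and 6 of 15 tested genes rose and 3, 1 and 1 fell. NimC3 fell in all 3 knockdowns. It had 5.52, 3.20 and 1.14 CPM in BEAF-32 RNAi, 8.72, 8.12 and 7.63 CPM in Cp190 RNAi Chro RNAi, 8.89, 3.96 and 3.998 CPM in BEAF-32 RNAi Dref RNAi and 30.1, 31.9 and 34.7 CPM in WT. NimC4, a receptor for apoptotic cells, had 71.2, 69.8 and 31.0 CPM in BEAF-32 RNAi, 172.8, 182.4 and 157.6 CPM in Cp190 RNAi Chro RNAi, 147.2, 152.0 and 142.7 CPM in BEAF-32 RNAi Dref RNAi and 100.5, 109.0 and 113.7 CPM in WT. It thus fell by 0.90 on the log2 scale in BEAF-32 RNAi (edgeR adjusted p = 0.0105) and rose by 0.67 in Cp190 RNAi Chro RNAi (adjusted p = 0.0384), and its value in BEAF-32 RNAi Dref RNAi was 0.45 (adjusted p = 0.124).

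NimC2, next to NimC1 in the Nimrod cluster, had 4, 4 and 8 reads in BEAF-32 RNAi and none in WT (edgeR adjusted p = 0.0168). Its pooled level there was 6.63 times the WT floor of 3 reads. It had 2 and 3 reads in the other knockdowns. The integrin subunit scb rose by 1.96, 1.67 and 1.79 on the log2 scale, and the opsonin-like Tep4 by 1.32, 0.82 and 0.96. The CD36-like gene emp, of the same family as crq, had 2.44, 2.33 and 1.56 CPM in BEAF-32 RNAi, 1.48, 1.30 and 0.820 CPM in Cp190 RNAi Chro RNAi, 1.52, 0.495 and 3.00 CPM in BEAF-32 RNAi Dref RNAi and 0.289, 0.0917 and 0 CPM in WT, and passed in each. The engulfment receptor drpr fell by 0.32 in BEAF-32 RNAi (adjusted p = 0.00885), and its log2 values were -0.02 and 0.01 in the other 2 knockdowns (adjusted p = 0.884 and 0.952).

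Of the 6 genes of the crystal cell list 3, 3 and 4 rose and 2, 0 and 1 fell, and the members of this list moved apart. Those that rose were PPO3, klu and peb, with Hayan in BEAF-32 RNAi Dref RNAi, and those that fell were PPO1 and PPO2. Hayan, which rose in BEAF-32 RNAi Dref RNAi only, had 1, 3 and 3 reads there and 0, 0 and 0 in WT. Its edgeR adjusted p was 0.0430, and 0.0808 with the replicate number as a block. The prophenoloxidase gene PPO1 had 0.531, 0.194 and 0.995 CPM in BEAF-32 RNAi, 2.01, 3.01 and 2.46 CPM in Cp190 RNAi Chro RNAi, 1.92, 2.35 and 1.78 CPM in BEAF-32 RNAi Dref RNAi and 4.04, 4.31 and 4.51 CPM in WT. PPO2 had 3, 8 and 0 reads in BEAF-32 RNAi and 28, 29 and 36 reads in WT. Both fell in BEAF-32 RNAi, at log2 fold changes of -2.96 and -2.78 (edgeR adjusted p = 0.000315 and 0.00474), the knockdown in which lz had most reads. PPO3, counted in this list although it is a prophenoloxidase gene of lamellocytes, rose by 1.43, 1.62 and 1.63. The transcription factor genes klu and peb had means of 2.11 and 1.502 CPM in BEAF-32 RNAi, 2.25 and 2.01 CPM in Cp190 RNAi Chro RNAi, 1.93 and 1.87 CPM in BEAF-32 RNAi Dref RNAi and 0.337 and 0.292 CPM in WT, and passed in all 3.

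Of 5 tested lamellocyte genes 2, 3 and 2 rose and none fell, with ItgalphaPS4, an integrin subunit, higher by 2.71, 1.94 and 2.02 on the log2 scale and mys, the beta subunit, by 0.78, 0.63 and 0.62. Of 13 tested matrix and clotting genes 1, 2 and 1 rose and 5, 2 and 5 fell. The laminin gene LanB1 had 2939, 2684 and 1048 CPM in BEAF-32 RNAi, 3367, 3034 and 3057 CPM in Cp190 RNAi Chro RNAi, 2472, 2575 and 2603 CPM in BEAF-32 RNAi Dref RNAi and 6766, 6731 and 6826 CPM in WT. LanB1 thus fell in each, by 1.61, 1.10 and 1.41 on the log2 scale. CG9796, also known as GILT1, rose by 3.09, 3.32 and 3.43 (edgeR adjusted p up to 2.13e-06).

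Without BEAF-32 RNAi replicate 3, the log2 fold changes of these genes in BEAF-32 RNAi kept their direction and passed for all those named here with a call. Among the values that moved were those of Pvf2 (1.93 in place of 2.49), PPO1 (-3.55 in place of -2.96), Pvf3 (2.56 in place of 3.08), Tep4 (0.83 in place of 1.32) and Alk (-3.69 in place of -4.18). NimC4 was at -0.61, PPO2 at -2.30, drpr at -0.41 and LanB1 at -1.27.

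**Figure D5:**
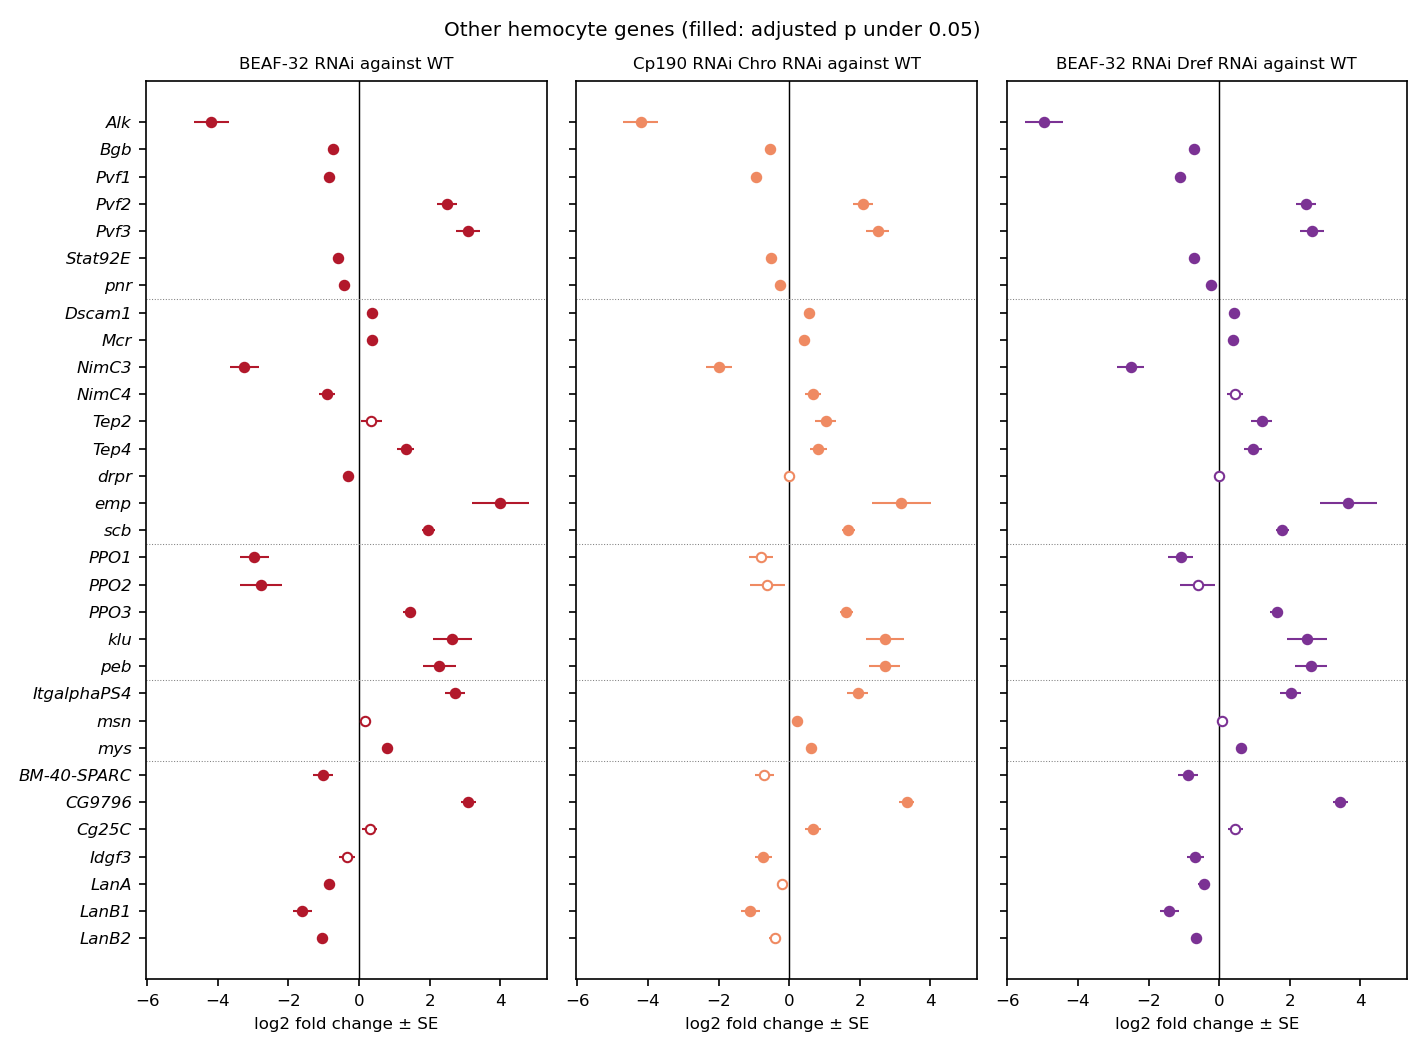
Fitted log2 fold change against WT of 31 other hemocyte genes named by rule (Hayan and gcm, with no WT read, are not drawn), grouped by list, with 1 panel for each knockdown, bars of 1 SE and filled points for an adjusted p under 0.05. Of the genes drawn, Alk has the lowest values, between -4.97 and -4.18, and emp in BEAF-32 RNAi the highest, 3.997.

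The genes around the 9 were examined within 20 kb of each gene. Of 73 such neighbours 52 were tested, and 17, 15 and 17 were higher and 10, 9 and 11 lower than in WT in the 3 knockdowns. The higher ones were 32.7, 28.8 and 32.7% of those tested, beside 18.5, 17.9 and 21.5% of all genes, and the lower ones 19.2, 17.3 and 21.2%, beside 15.7, 15.6 and 20.3% of all genes. Without BEAF-32 RNAi replicate 3, the calls of BEAF-32 RNAi were 22 higher and 12 lower of 51 tested, beside 23.2% and 22.9% of all genes. The genes within 5 kb of eater, CG14259, CG17189, CG14258, CG6074 and Cpr97Eb, had means of at most 0.115 CPM in every group, so that no neighbour of eater within that distance had a level near its own. GATAe, a GATA factor gene 5019 bp from srp, rose while srp was lower. Its means were 27.1 CPM in BEAF-32 RNAi, 40.6 CPM in Cp190 RNAi Chro RNAi, 36.4 CPM in BEAF-32 RNAi Dref RNAi and 9.68 CPM in WT, at log2 fold changes of 1.497, 2.07 and 1.91 (edgeR adjusted p = 0.0013, 0.000153 and 0.00021), and 1.80 in BEAF-32 RNAi without replicate 3. The gene c11.1 lies 1531 bp from lz on the opposite strand, with the 5' ends of both genes facing each other. It rose by 0.96, 1.23 and 1.40, and by 0.57 in BEAF-32 RNAi without replicate 3. Between crq and ush, CG4297 fell, at log2 fold changes of -3.15, -2.24 and -2.46, and -3.52 in BEAF-32 RNAi without replicate 3. CG4133, also between them, rose by 3.92, 5.08 and 5.43 (adjusted p = 0.0265, 0.00581 and 0.003), but its value in BEAF-32 RNAi without replicate 3 was 1.29 (adjusted p = 0.141), with means of 0.595 CPM in replicates 1 and 2 and 0.239 CPM in WT. Sr-CIII, 74 bp from Sr-CI, had no read in any library.

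Each gene was placed in the TAD and loop lists of the knockdowns, with 1 list per knockdown, so that no difference between them could be tested. The lz start lay 0.55 kb from a border at X 9284100 in all 3 TAD lists. The ush start lay 3.84 kb from a border at 2L 472376, and a border at 490264 crossed its body in all 3. The srp body was crossed by a border in the BEAF-32 RNAi list, that of Pxn in the other 2, and that of Sr-CI in the BEAF-32 RNAi Dref RNAi list, where borders crossed 8.53% of all genes in BEAF-32 RNAi, 7.55% of all in Cp190 RNAi Chro RNAi and 4.67% of all in BEAF-32 RNAi Dref RNAi. The eater start lay 12.42 kb from the nearest border in BEAF-32 RNAi and also in Cp190 RNAi Chro RNAi, against 43.25 kb in BEAF-32 RNAi Dref RNAi, in TADs of 41.4, 29.3 and 96.9 kb. These lists held 2550, 2156 and 1410 TADs in that order. In the authors' stricter lists of strong TADs (delta 0.08), the eater start lay 51.26, 52.93 and 53.61 kb from a border. There the lz start lay 0.55, 0.55 and 146.34 kb from one and the ush start 3.84, 3.84 and 14.04 kb. The crq start lay 19.35, 19.35 and 37.24 kb from a strong border. No strong border crossed Sr-CI. No loop anchor touched eater, NimC1, crq or Sr-CI in any list. A loop within lz, between X 9286001 to 9288000 and 9302001 to 9304000, was listed in BEAF-32 RNAi with 52 observed contacts and in Cp190 RNAi Chro RNAi with 56, and was not in the list of BEAF-32 RNAi Dref RNAi, the shortest of the 3 with 787 loops against 1179 and 2154. A loop within ush, with 72 and 94 contacts, was likewise in the first 2 lists only. Anchors also touched srp in all 3 lists, Pxn in both double knockdowns and Hml in BEAF-32 RNAi Dref RNAi. The only anchor at a promoter of the 9 was that of srp in Cp190 RNAi Chro RNAi.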

How the data were processed

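Gene levels came from the 12 RNA-seq libraries. Poly(A) RNA was sequenced. Reads were trimmed (Trimmomatic 0.39) and mapped to dm6 (TopHat2 2.1.2 on Bowtie2 2.3.4.1), Picard took out duplicates, and the authors deposited the raw counts per gene of HTSeq at its default setting. Whether the kit keeps strand is not stated in those notes. Reads of genes that overlap on opposite strands (ush and cbt, crq and ex, Pxn and CG16986) thus cannot be told apart. CR44133 and srp overlap on the same strand, where strand would not separate their reads. The TAD and loop lists were used as deposited by the authors, who called TADs with hicFindTADs of HiCExplorer (delta 0.04) and loops with HiCCUPS of Juicer in bins of 2 kb, on 2 merged replicates aligned with BWA.

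Lines of HTSeq that are no genes (no feature 39.4 to 44.1% of counted reads, ambiguous 0.486 to 0.598%, not unique 16.0 to 29.5%) were left out. Counts of genes with at least 10 reads of the 12 libraries went into 1 edgeR fit (edgeR 4.0.16, R 4.3.3, TMM factors) and were tested by its quasi-likelihood F test with Benjamini-Hochberg adjustment over 10545 genes at 0.05. The SE was taken as the size of the log2 fold change divided by the root of F. Intervals of ratios are exact (Clopper-Pearson, 95%) and cover counting error only. The procedure was tested on simulated data. These gave every library the same spread and changed only genes with at least 100 WT reads. They therefore do not bear on BEAF-32 RNAi replicate 3 or on genes with few reads. DESeq2 1.42.0, its size factors, no filter, a fit of the 2 groups alone, a replicate block and each library left out were tried as alternatives. The 9 genes and the lists were chosen with earlier results of these data known. From each other list the text names at most 4 genes per direction and knockdown, those with the smallest p among calls under 0.05, besides list genes next to one of the 9 and, for each of the 9 with at least 100 counts, the 3 genes of highest Pearson r. Genes named outside this rule (Tig, dome and the neighbours) were chosen after their values were seen. NimA, 9776 bp from NimC1, falls under the rule as a list gene, but was also named after its values were seen. Symbols were matched to RefSeq, Release 6, 12512 directly, 3996 through a synonym and 219 not at all.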

Additional observations from a re-analysis of the deposited data

Results flagged for a closer look

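Of the 55 other hemocyte genes tested, 8 were higher in Cp190 RNAi Chro RNAi than in BEAF-32 RNAi in edgeR's test of the difference itself, and 4 of these also in BEAF-32 RNAi Dref RNAi than in BEAF-32 RNAi, with none lower. Over all genes 6.9% and 5.74% passed in either direction, with 385 and 320 of 10545 called higher and 343 and 285 called lower. The lists were chosen with earlier results of these data known, and NimA, Tig and dome were named after their values were seen. The p-values below are therefore a description. NimC4 was higher by 1.57 on the log2 scale in Cp190 RNAi Chro RNAi than in BEAF-32 RNAi (adjusted p = 0.00248) and by 1.35 in BEAF-32 RNAi Dref RNAi than in BEAF-32 RNAi (adjusted p = 0.00641). PPO1 was higher by 2.18 (adjusted p = 0.0117) and 1.87 (adjusted p = 0.0275), NimA by 1.29 (adjusted p = 0.0236) and 1.26 (adjusted p = 0.0288), and drpr by 0.30 (adjusted p = 0.0390) and 0.33 (adjusted p = 0.0310), in the same order of comparisons. In Cp190 RNAi Chro RNAi against BEAF-32 RNAi, the laminin genes LanA and LanB2 were higher by 0.66 (adjusted p = 0.0202) and 0.64 (adjusted p = 0.0411). The matrix gene Tig and dome, the JAK/STAT receptor gene, were higher by 0.91 (adjusted p = 0.0398) and 0.26 (adjusted p = 0.0484) there. Without BEAF-32 RNAi replicate 3, the values were 1.27 and 1.05 for NimC4, 2.76 and 2.45 for PPO1, 1.75 and 1.70 for NimA, 0.39 and 0.41 for drpr, 0.47 for LanA, 0.41 for LanB2, 0.67 for Tig and 0.29 for dome, and all of these passed. In that fit 37.9% of all genes passed in Cp190 RNAi Chro RNAi against BEAF-32 RNAi. In BEAF-32 RNAi Dref RNAi against BEAF-32 RNAi 42.9% did, so nothing is read from these passes.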

How the results depend on the processing

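For the 9 genes, BEAF-32 RNAi against WT had 3 called higher in the fit of all libraries, 1 when only the 2 groups were fitted (lz), and 1 to 4 when a library was left out, with 1 called lower without a filter (0 with it) and 0 to 1 with a library left out. Cp190 RNAi Chro RNAi had 2 called lower in the fit of 2 groups (0 in the full fit), 1 to 2 higher and 0 to 2 lower with a library left out. BEAF-32 RNAi Dref RNAi had 4 called lower in the fit of 2 groups (2 in the full fit), 0 higher and 0 to 4 lower with a library left out. Calls over all genes moved as well. In the fit of 2 groups BEAF-32 RNAi had 797 higher and 682 lower of 9846 genes (1952 and 1659 of 10545 in the full fit). Cp190 RNAi Chro RNAi had 2941 lower of 9733 (1648), and BEAF-32 RNAi Dref RNAi had 3154 lower of 9667 (2141). Between knockdowns, where the full fit called 0, DESeq2 called 3 in BEAF-32 RNAi Dref RNAi and 2 in Cp190 RNAi Chro RNAi against BEAF-32 RNAi, no filter called 1 in the second, and leaving out a library gave 0 to 7 and 0 to 5, with the highest counts without BEAF-32 RNAi replicate 3. BEAF-32 RNAi Dref RNAi against Cp190 RNAi Chro RNAi had 1 in the fit of 2 groups and 0 to 1 with a library left out. Of the 55 other hemocyte genes, the fit of 2 groups called 10 lower in BEAF-32 RNAi (18 in the full fit) and 18 lower in Cp190 RNAi Chro RNAi (8), where DESeq2 called 13. Over all genes DESeq2 called 1839 of 10545 lower in Cp190 RNAi Chro RNAi. Leaving out a library gave 13 to 24 higher and 17 to 24 lower in BEAF-32 RNAi, 11 to 23 and 7 to 18 in Cp190 RNAi Chro RNAi, and 14 to 21 higher and 10 to 19 lower for BEAF-32 RNAi Dref RNAi. The causes were not tested. Among the values of single genes under these alternatives, 55 lost a call, 39 moved and 1546 did neither. No called value changed its direction, and of the uncalled ones ush changed sign in BEAF-32 RNAi (0.10 without replicate 3, -0.07 with it), as did Hml for BEAF-32 RNAi Dref RNAi without WT replicate 1 and Pxn, near 0, in both double knockdowns with a library left out. With the replicate number as a block, BEAF-32 RNAi Dref RNAi had 1 called lower (2 without the block), and no other count moved by over 1.5 times. Same-numbered libraries correlated at -0.0779 to 0.0373 over 18 pairs, none over 0.1 and 5 best with their own number, so the numbers do not pair the libraries. Few reads limit lz, NimC1, Sr-CI and Hml.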
